A study of Mus musculus with 6 samples.

Results

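The genes described here encode proteins of endothelial cell junctions and of the endothelial cell surface, with 1 secreted protein, and they mark the lining of blood vessels. The list names 10 genes (Pecam1, Cdh5, Esam, Icam2, Emcn, Robo4, Cldn5, Egfl7, Plvap and Clec14a), and every probe set annotated to 1 of them alone was taken, which gave 15 of the 45037 probe sets on the array that are not controls. Their levels were read from day 6 embryoid bodies, clusters that mouse embryonic stem cells form in suspension and within which many lineages arise. The embryoid bodies came from the Hoxb4i line, in which a doxycycline-inducible cassette carries HOXB4, a homeobox protein active in blood stem cells. The uninduced group received no doxycycline, and the doxycycline group received it at 2 µg/ml for 48 hours from day 4. All 6 arrays are from this line, so the cassette is present in both groups, and doxycycline on cells without the cassette is not among the samples. The design text states 3 biological replicates for each group, and the labels name them replica A, B and C. Arrays with the same letter are treated here as 1 experiment, so that every experiment has 1 array of either group. The labels do not state that such arrays share an experiment.

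Endothelial cells are held together by adherens junctions, built on VE-cadherin, and by tight junctions, built on claudins. Immunoglobulin-type adhesion molecules at the same borders tie neighbouring cells to one another and guide the passage of leukocytes, while sialomucins and lectins cover the surface that faces the blood. In embryoid bodies endothelial cells arise from mesoderm at about the time when the first blood cells appear, and some of the surface proteins are shared with blood cells. Pecam1 is also found on mouse embryonic stem cells. The arrays measure RNA from whole embryoid bodies, so that fewer endothelial cells and less RNA per endothelial cell cannot be told apart.

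Array quality differed for 1 library, the uninduced one of A. There the Actb control probes gave 2.88 times as much signal at the 3' end as at the 5' end, against 1.26 to 1.48 times on the other 5 arrays. It was the extreme array, above or below the other 5, on 53.8% of the tested probe sets. Members called in a comparison with experiment A are also given without this array. Both Hoxb4 probe sets had a higher signal on the induced array in 3 of 3 experiments. The rise was small in B, from 119.8 to 129.5 on 1 probe set and from 253 to 261.4 on the other. In A the same probe sets rose from 46.5 to 116.4 and from 78.2 to 136.3. In C they rose from 113.5 to 175.5 and from 27.6 to 150.7. Whether induction was weaker in B was not tested.

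The members are spread over 7 chromosomes in the RefSeq gene table. In that table Pecam1 and Icam2 lie on chromosome 11 with 2 protein-coding genes between them, and Esam and Robo4 lie on chromosome 9, also with 2 between them. RefSeq promoter windows of assembly GRCm38.p6, each from 250 bases before to 50 bases after an annotated start, were at hand for 5 of the 10 members, with 7 windows in all because Egfl7 has 3 starts. Windows of Egfl7, Emcn and Cldn5 are shown because the signals of these genes stood well above the rest on the arrays of B. That of Robo4 is shown because its signals in B lay only a little above the highest of the others. Endothelial genes are widely bound by transcription factors of the ETS family, so capitals mark each match to AGGAAG, an ETS-type sequence, or to its reverse complement CTTCCT. The sequences run 5′ to 3′ on the gene's strand.
Egfl7, first start, chr2:26580833-26581132, plus strand: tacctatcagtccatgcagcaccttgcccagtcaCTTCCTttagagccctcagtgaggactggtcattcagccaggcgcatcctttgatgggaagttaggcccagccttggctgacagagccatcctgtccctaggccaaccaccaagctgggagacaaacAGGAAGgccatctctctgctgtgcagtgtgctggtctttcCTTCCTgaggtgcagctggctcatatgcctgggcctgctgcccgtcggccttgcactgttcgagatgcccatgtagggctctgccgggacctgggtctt
Egfl7, second start, chr2:26583615-26583914, plus strand: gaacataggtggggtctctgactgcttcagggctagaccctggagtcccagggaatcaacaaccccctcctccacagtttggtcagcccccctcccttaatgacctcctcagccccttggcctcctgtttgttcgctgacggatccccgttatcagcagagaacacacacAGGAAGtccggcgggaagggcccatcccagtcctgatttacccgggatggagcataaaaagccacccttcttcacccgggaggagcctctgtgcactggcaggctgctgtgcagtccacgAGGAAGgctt
Emcn, chr3:137340828-137341127, plus strand: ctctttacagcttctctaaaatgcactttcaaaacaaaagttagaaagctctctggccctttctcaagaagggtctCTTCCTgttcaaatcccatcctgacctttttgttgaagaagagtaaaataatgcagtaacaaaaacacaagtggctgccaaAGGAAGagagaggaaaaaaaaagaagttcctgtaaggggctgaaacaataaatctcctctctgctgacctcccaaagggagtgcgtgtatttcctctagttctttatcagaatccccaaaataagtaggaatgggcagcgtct
Cldn5, chr16:18776597-18776896, plus strand: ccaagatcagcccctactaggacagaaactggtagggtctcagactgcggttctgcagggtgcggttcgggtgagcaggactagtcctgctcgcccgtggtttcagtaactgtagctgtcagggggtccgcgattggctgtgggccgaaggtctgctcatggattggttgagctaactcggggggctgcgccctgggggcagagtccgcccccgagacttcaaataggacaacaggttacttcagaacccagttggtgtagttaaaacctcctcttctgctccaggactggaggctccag
Robo4, chr9:37401722-37402021, plus strand: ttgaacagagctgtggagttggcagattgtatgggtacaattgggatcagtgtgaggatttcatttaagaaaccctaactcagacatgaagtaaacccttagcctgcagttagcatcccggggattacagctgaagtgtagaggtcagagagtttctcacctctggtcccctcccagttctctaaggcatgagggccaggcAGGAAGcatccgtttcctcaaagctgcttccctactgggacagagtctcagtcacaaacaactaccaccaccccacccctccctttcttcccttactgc
The ETS-type sequence was present in 4 of the 7 windows, with 3 and 2 matches in the first and second Egfl7 windows, 2 in Emcn and 1 in Robo4, and in none of the Cldn5, Clec14a and last Egfl7 windows. Of all 32851 windows of 300 bases in the RefSeq table, 35.4% held it. On either strand, the SOX-type sequence AACAAT was present in 1 of the 7 windows, that of Emcn, against 10.7% of all windows, and the GATA-type sequence AGATAA in 0 of 7, against 11.2%. Whether these sequences bear on the signals was not tested.

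Most of the endothelial genes differed between the experiments, while none passed the test for doxycycline. Both arrays of experiment B lay above the other 4 arrays on 14 of the 15 member probe sets, for at least 1 probe set of each of the 10 genes. Over all 45037 probe sets this held for 10.1%. Only probe sets with a mean over the arrays of at least 60.5 were tested. Among tested ones it held for 12.2%, against 12 of 12 member probe sets. That count is partly set by the filter. Icam2 and Emcn passed it only through the arrays of B (means of 33.2 and 45.3 over the other 4 arrays). The Clec14a probe set on which B was lowest failed it. Experiments A and C lay lower, and whether they overlapped differed from gene to gene. The values below are MAS5 signals on a linear scale, 1 per probe set and array, scaled by the authors to the same trimmed mean on every array. Log2 differences and their tests refer to log2(signal + 18.8), the offset of 18.8 being the 20th percentile over all arrays. Such differences understate the change of dim probe sets. Where 2 signals are given for an experiment, the uninduced array comes first. Signals of different genes are not compared, since each probe set has its own response.

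**Figure D1:**
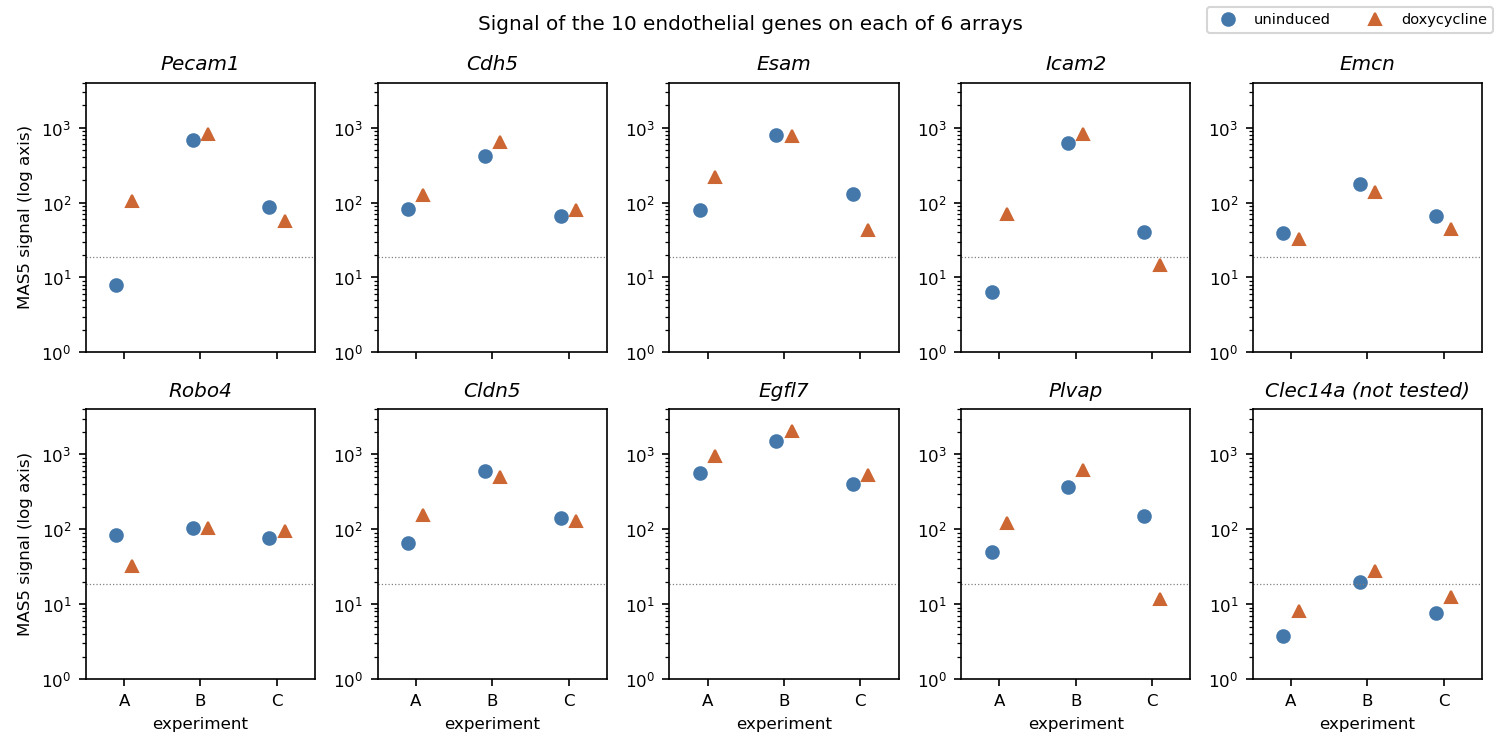
MAS5 signal on a log axis for each of the 10 endothelial genes (1 probe set per gene, the one with the highest mean) in experiments A, B and C; circles are uninduced arrays, triangles doxycycline arrays, and the dotted line is the offset of 18.8. In every panel both arrays of B lie above the other 4 arrays, by little for Robo4, and Clec14a lies near or below the offset throughout.

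Among the immunoglobulin-type adhesion genes, Pecam1, whose protein joins endothelial cells at their borders, had signals of 7.8 and 105.3 from A, 690.1 and 819.3 from B, and 86.3 and 57.2 from C. Both arrays of B were thus at least 6.55 times as high as any other array. The log2 difference B minus A was 3.75 ± 0.59 (SE), and C minus B was -3.11 ± 0.59 (SE), with limma adjusted p of 0.0180 and 0.0152. Icam2, a ligand of leukocyte integrins on resting endothelium, had 6.4 and 71.1 from A, 624.9 and 820.5 from B, and 40.6 and 14.7 from C. This was the widest separation among the members, with the lower array of B at 8.79 times the highest of the others. B minus A was 3.95 ± 0.60 (SE, adjusted p = 0.0160 by limma) and C minus B was -4.04 ± 0.60 (SE, adjusted p = 0.00522). Esam, an adhesion molecule of endothelial tight junctions and platelets, had 78.3 and 222.4 from A, 806.3 and 774.7 from B, and 129.1 and 43.1 from C. Its arrays of B lay close together, whereas the induced array was the higher one in A and the lower one in C. C minus B was -3.08 ± 0.54 (SE, limma adjusted p = 0.0106), and B minus A, at 2.40 ± 0.54 (SE), did not pass the threshold (adjusted p = 0.0511). With single arrays left out, B minus A for Esam ran from 1.42 to 3.39, and it passed without any 1 array of A or C but not without either array of B.

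The junction proteins proper showed the same order. Cdh5, which encodes VE-cadherin, the adhesive core of endothelial adherens junctions, is read by 2 probe sets. On 1433956_at the signals were 81.0 and 127.3 from A, 415.9 and 642.8 from B, and 65.3 and 79.3 from C. Both arrays of B were at least 3.27 times as high as the rest, and both arrays of A lay above those of C. B minus A was 2.15 ± 0.32 (SE, limma adjusted p = 0.0149) and C minus B was -2.56 ± 0.32 (SE, adjusted p = 0.00229). The other probe set, 1422047_at, was dimmer, with 17.2 and 23.9 from A, 98.7 and 107.2 from B, and 8.3 and 56.1 from C. Its mean of 51.9 fell below the filter on low values at 60.5, and in the fit with no filter it did not pass (F test adjusted p = 0.164), although B was again highest. Cldn5, the main claudin of endothelial tight junctions, had 65.8 and 155.2 from A, 603.9 and 501.9 from B, and 142.5 and 127.9 from C. The arrays of C lay inside the range of A. B minus A was 2.23 ± 0.38 (SE, limma adjusted p = 0.0238) and C minus B was -1.89 ± 0.38 (SE, adjusted p = 0.0202).

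Egfl7, a secreted protein that endothelial cells place in their matrix, is read by 4 probe sets, of which those ending in x_at can also bind related transcripts. On the brightest, 1451428_x_at, the signals were 556.3 and 948.7 from A, 1529.5 and 2023.7 from B, and 407.5 and 537.5 from C. The order B, A, C held here without overlap, and C minus A was -0.62 ± 0.22 (SE), not past the threshold (limma adjusted p = 0.118). B minus A was 1.25 ± 0.22 (SE, limma adjusted p = 0.0249) and C minus B was -1.87 ± 0.22 (SE, adjusted p = 0.00174), so that Egfl7 was raised in B by a smaller factor than Pecam1 or Icam2 on this scale; that difference between genes was not tested. The other 3 probe sets also had both arrays of B highest. C minus B passed the threshold on 4 of 4 Egfl7 probe sets, from -1.87 to -1.41, and B minus A on 2 of 4.

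**Figure D2:**
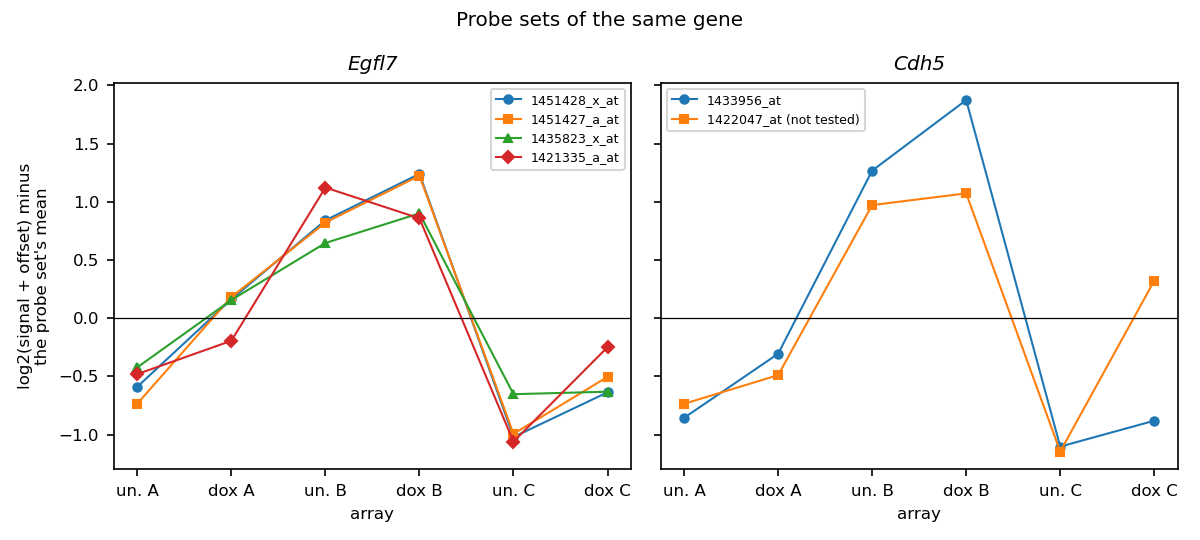
Log2(signal + offset) on each array minus the mean of the probe set over the 6 arrays, for the 4 probe sets of Egfl7 and the 2 of Cdh5; lines join the arrays of 1 probe set only to guide the eye. All 6 probe sets are highest on the arrays of B; the dim Cdh5 probe set departs from the other on the induced array of C, where its signal was 56.1.

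Plvap and Emcn were highest in B without passing the test. Plvap, which forms the diaphragms of endothelial fenestrae and caveolae, had 50.1 and 119.5 from A, 368.9 and 613.0 from B, and 149.5 and 11.6 from C. The arrays of C were further apart than those of A or B, by -2.47 on the log2 scale. C minus B was -2.79 with a 95% confidence interval of -4.54 to -1.04 (limma adjusted p = 0.0590), and B minus A was 2.34 with an interval of 0.59 to 4.09 (adjusted p = 0.120). With single arrays left out, C minus B for Plvap ran from -4.45 to -1.13, nearest to 0 without the induced array of C (limma adjusted p = 0.295), and passed in 4 of the 6 fits. B minus A ran from 1.40 to 3.29 and also passed in 4 of 6, not without either array of B. Emcn, a sialomucin of the capillary and venous surface, had 38.7 and 32.1 from A, 174.7 and 138.6 from B, and 66.7 and 43.7 from C. The 3 experiments did not overlap on this probe set, in the order B, C, A. B minus A was 1.69 (interval 0.72 to 2.66, limma adjusted p = 0.0666) and C minus B was -1.26 (-2.22 to -0.29, adjusted p = 0.111). With single arrays left out, C minus B for Emcn passed in 2 of 6 fits (those without an array of A) and B minus A in 1 (without the induced array of A), with limma adjusted p up to 0.508 and 0.499.

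Robo4 and Clec14a gave little or no difference. Robo4, an endothelial receptor of the Roundabout family, had 84.1 and 32.1 from A, 105.0 and 105.0 from B, and 77.0 and 95.1 from C. Apart from the induced array of A, all values lay between 77.0 and 105.0. B minus A was 0.77 with an interval of -0.29 to 1.84 (limma adjusted p = 0.343) and C minus B was -0.25 with an interval of -1.31 to 0.82 (adjusted p = 0.801), which leaves room for differences of over 1 log2 unit. Clec14a, a C-type lectin of the endothelial surface, was dim on both of its probe sets. On 1419467_at the signals were 3.8 and 8.2 from A, 19.7 and 28.0 from B, and 7.7 and 12.3 from C, while on 1419468_at B was lowest, with 3.8 and 1.9 against 7.3 to 21.2 on the other arrays. These probe sets disagree, both failed the filter on low values, and in the fit with no filter neither passed (F test adjusted p = 0.398 and 0.454).

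In the moderated F test over the 3 experiments, with the doxycycline group as a term, 6 of the 9 tested genes passed at an adjusted p under 0.05: Pecam1, Cdh5, Esam, Icam2, Cldn5 and Egfl7. Of all 27022 tested probe sets, 11.6% passed. B minus A passed as higher for 5 genes, the same ones without Esam (2.09% of all tested probe sets), and C minus B as lower for all 6 (5.26%). C minus A passed for 0 genes (2.52% of all tested probe sets higher and 4.29% lower), with estimates from -0.68 for Esam to 0.64 for Pecam1. Because Icam2 and Emcn passed the filter on low values only through the arrays of B (their means over the other 4 arrays were 33.2 and 45.3), the fit was also made with no filter, for all 10 genes. The same 6, 5 and 6 genes passed, against 5.03%, 0.850% and 2.67% of all probe sets. In that fit the median of the 10 genes was 2.19 for B minus A and -2.22 for C minus B, beside -0.015 and 0.093 over all probe sets. It was 0.062 for C minus A, beside 0.088.

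**Figure D3:**
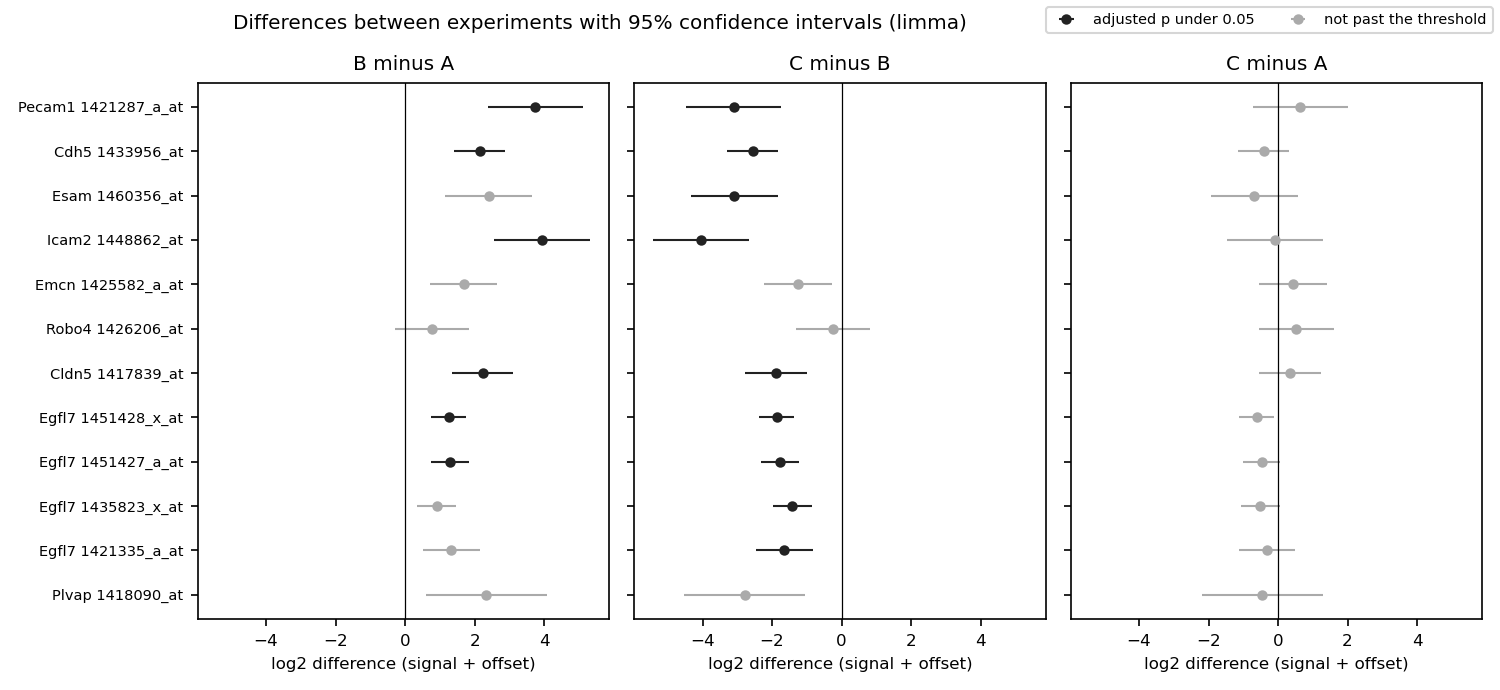
Log2 differences between experiments for the 12 tested member probe sets, with 95% confidence intervals from limma; black points have an adjusted p under 0.05 over all tested probe sets and grey points do not. B minus A lies to the right of 0 and C minus B to the left for all 12 probe sets, while C minus A spans 0 for 11 of them.

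Each experiment is represented by 1 uninduced and 1 induced array, and the group term takes up the difference that such pairs share. These p-values thus rest on how the doxycycline difference varied from experiment to experiment. They do not measure the spread between repeats of an experiment. The calls rest on few arrays: without the uninduced array of B the F test called 2 genes (Cdh5 and Icam2) and B minus A called 0. The median B minus A over the 9 tested genes was 2.04 when the induced B array was dropped and 2.85 when the induced A array was. The median C minus B was -1.77 without the induced array of C. It lay between -2.74 and -2.24 when any other single array was dropped. Dropping the uninduced A array gave 8 genes in the F test, 7 in B minus A, 8 in C minus B and 3 in C minus A (Esam, Egfl7 and Plvap, all lower in C). More of all tested probe sets were then called too: 32.4% in the F test, 5.27% higher in B minus A, 13.7% lower in C minus B and 8.27% lower in C minus A. Dropping the induced A array gave 2 in C minus A (Pecam1 and Cldn5, both higher in C, against 16.9% of all tested probe sets), and the F test then called 51.1% of all. Fits on 5 arrays have 1 residual degree of freedom, and their p-values lean on the moderation across probe sets. The 5 genes called in B minus A were called without the uninduced A array as well, with smaller estimates of 2.58 for Pecam1, 2.92 for Icam2, 2.08 for Cdh5, 1.61 for Cldn5 and 1.07 for Egfl7. Without an intensity trend in the moderation, B minus A called 0 genes, with adjusted p of 0.0540 to 0.0940 for those 5. The F test and C minus B then each called 4 (Cdh5, Icam2, Emcn and Egfl7). In C minus B this setting ended the calls of Pecam1 (limma adjusted p = 0.0617), Esam (0.0529) and Cldn5 (0.0561) and added Emcn (0.0397).

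The members followed one another across the arrays, with 1 exception. Over the 6 arrays, each of Pecam1, Cdh5, Esam, Icam2, Emcn, Cldn5, Egfl7 and Plvap correlated with the mean of the other members at a Pearson r of 0.89 to 1.00, highest for Icam2. For Robo4 this r was 0.31. Between single genes r ran from 0.71 (Emcn and Egfl7) to 0.99 (Pecam1 and Cldn5) when Robo4 was left out. The genes share the split of the B arrays from the rest and the same 6 libraries, so that these values are a description. The non-member genes with the most similar pattern, by r with the mean profile of the 9 tested members over 6 arrays, were Samsn1, Anxa5, Oat, Sgce and Fhl1, each at 1.00. Of 12443 non-member genes, 3.95% had an r above 0.9; among 36 tested genes of a list of other endothelial genes there were 20.

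Other endothelial genes were also high in B. This list of 40 genes holds vascular receptors, transcription factors and further surface proteins, and 36 of them were tested. Both arrays of B lay above the other 4 for 28 of the 36, against 12.2% of all tested probe sets. Some of these genes passed the filter on low values only through the arrays of B, so the counts for this list are partly set by the filter. Erg had means of 32.1 over the arrays of A and 9.3 over those of C, and Cd93 had 42.2 and 15.5. No count without the filter is given for this list. The F test called 25, B minus A called 16 as higher and 0 as lower, and C minus B called 25 as lower and 0 as higher (1.91% of all tested probe sets were lower in B minus A and 4.33% higher in C minus B). The medians were 1.53 for B minus A and -2.07 for C minus B, beside -0.083 and 0.069 over all tested probe sets. Tek, the receptor of the angiopoietins, had signals of 85.5 and 157.3 from A, 1366.0 and 1398.7 from B, and 82.3 and 59.8 from C, with B minus A at 3.37 (limma adjusted p = 0.00511). Mmrn2, an endothelial matrix protein that binds Clec14a, had 37.0 and 83.0 from A, 1412.8 and 1335.3 from B, and 58.6 and 39.3 from C, with B minus A at 4.21 (adjusted p = 0.00333). Without the uninduced array of A, B minus A was 2.91 for Tek and 3.65 for Mmrn2, and over the list it called 15 genes as higher and 1 as lower. Nrp1, a coreceptor of VEGF that other cells also express, was lowest in C, at 447.6 and 258.0, against 1876.0 to 7153.7 elsewhere (C minus B -4.30, adjusted p = 8.4e-05).

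Partners of the junction proteins changed in both directions in B minus A and mostly or only downwards in the comparisons with C. Of 24 catenins, scaffold proteins, adhesion molecules and Slit or Unc5 partners, 21 were tested. B minus A called 3 as higher and 2 as lower (2.09% and 1.91% of all tested probe sets), with a median of 0.16. C minus B called 6 as lower and 1 as higher (5.26% and 4.33% of all), with a median of -0.62. C minus A called 8 as lower and 0 as higher (4.29% and 2.52% of all), with a median of -0.51. The lowest F test p values belonged to Unc5b, a binding partner of Robo4, which had 189.3 and 203.2 in C against 1285.5 to 1641.1 in A and B (C minus B -2.78, limma adjusted p = 0.000303), to the Robo ligand Slit3 (-3.22, adjusted p = 0.000340) and to the junction protein gene Cgnl1 (-3.22, adjusted p = 0.000438). For Unc5b B minus A was 0.077 and did not pass (limma adjusted p = 0.858).

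Markers of several other cell types also differed between the experiments, and their part in the result was not tested. The summed signal of 7 primitive erythroid genes was 26460 to 36989 in B, 521.5 to 3102 in A and 1706 to 1791 in C. B minus A was higher for 4 of 7 and C minus B lower for 2 of 7 (2.09% and 5.26% of all tested probe sets). Hbb-bh1 carries most of the sum in B. The embryonic globin gene Hbb-bh1 stood at 27951 and 20436 in B, against 285.5 and 2296 in A (B minus A 4.83, limma adjusted p = 0.0141, and 3.19 without the uninduced array of A). The sum over 6 mural and smooth muscle genes was 21303 to 22321 in B, 4058 to 6707 in A and 3710 to 4163 in C, with B minus A higher for 4 of 6 and C minus B lower for 4 of 6. Cardiomyocyte genes summed to 2315 to 4171 in B, 1430 to 1756 in A and 552.7 to 670.0 in C. For these B minus A was higher for 1 of 7 and C minus B lower for 3 of 7. Visceral endoderm genes summed to 14873 to 15967 in B, 6717 to 7809 in A and 975.3 to 1146 in C, and epithelial genes to 41371 to 41701, 29140 to 32197 and 5247 to 5455. In these last lists bright genes (Ttr and Rbp4, Krt8 and Krt18) carry the sums: the median B minus A over the genes was -0.55 for visceral endoderm (3 called higher and 2 lower of 8) and -0.84 for epithelial genes (2 higher and 3 lower of 8). C was low over more of the epithelial genes. C minus B was lower for 7 of 8 (median -1.84) and C minus A for 8 of 8 (median -2.63). For visceral endoderm C minus B was lower for 4 of 8 (median -1.26) and C minus A for 4 of 8 (median -1.56). Of all tested probe sets, 5.26% were lower in C minus B and 4.29% in C minus A.

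Other lists were lowest in B or overlapped between experiments. The 8 neural genes summed to 861.7 to 1197 in B, 5670 to 7988 in A and 12221 to 12879 in C. Among them B minus A was lower for 4 and C minus B higher for 7 (1.91% and 4.33% of all tested probe sets). The 8 pluripotent cell genes are of interest because embryonic stem cells carry Pecam1. These genes summed to 1326 to 1681 in B, 2036 to 2119 in A and 4007 to 4094 in C. B minus A called 0 of them and C minus B called 3 as higher. The part of such cells in the Pecam1 signal was not tested. Megakaryocyte and platelet genes, a source of Pecam1, Esam and Icam2 RNA besides endothelium, summed to 730.7 to 835.8 in B, 506.6 to 534.3 in A and 609.6 to 962.9 in C, and the F test called 0 of 5. For 5 macrophage and leukocyte genes the sums were 611.1 to 885.2 in B, 592.6 to 982.7 in A and 626.8 to 738.7 in C, overlapping throughout.

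**Figure D4:**
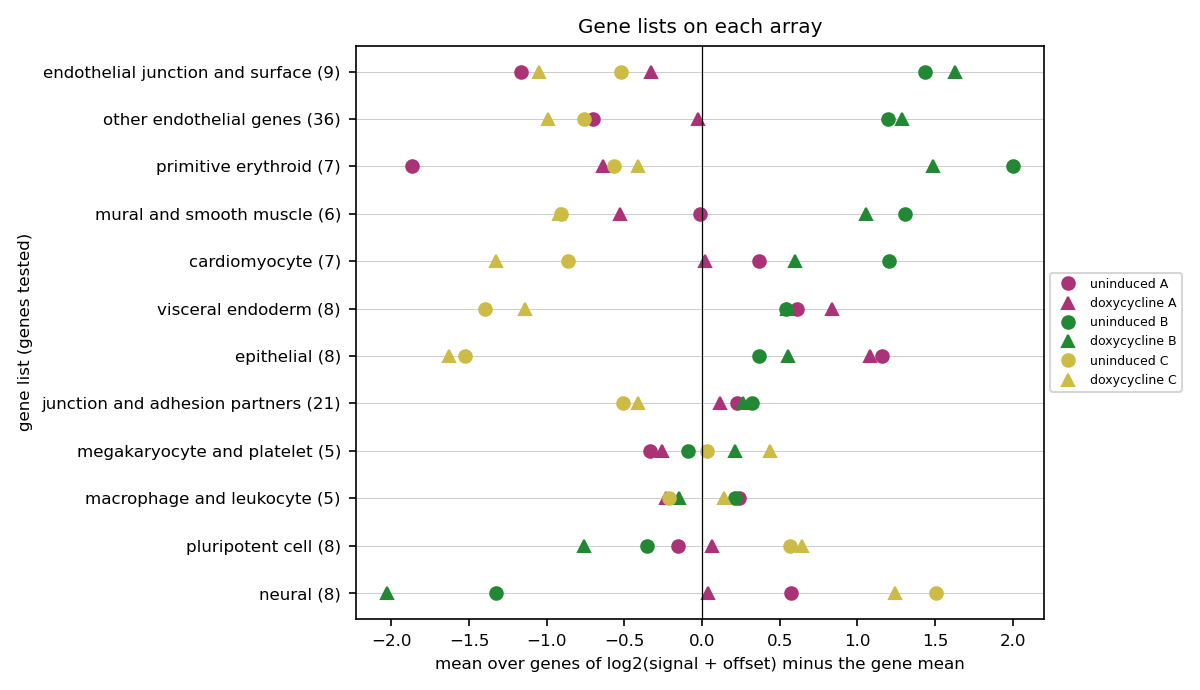
Mean over the tested genes of each list of log2(signal + offset) minus the gene's own mean over the 6 arrays; colours are experiments, circles uninduced and triangles doxycycline arrays, and the number of genes is in brackets. The endothelial, primitive erythroid, mural and cardiomyocyte lists lie highest on both arrays of B, as do the junction and adhesion partners by a small margin. The neural and pluripotent cell lists lie lowest there, and the platelet and leukocyte lists stay within 0.5 of 0.

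The second comparison, doxycycline against no induction, called 0 of the 9 tested endothelial genes, as it called 0% of all 27022 tested probe sets. Estimates ran from -0.31 for Emcn to 0.67 for Pecam1, with 5 genes higher and 4 lower, and every adjusted p was 1.00 (limma). At an unadjusted p under 0.05 there were 0 member genes, against 0.511% of all tested probe sets. The intervals were wide, with half-widths between 1.02 for Robo4 and 3.34 for Icam2, because the differences between experiments count as spread in this fit. With the experiment as a replicate block, 0 were again called. Egfl7 was then the 1 gene with an unadjusted p under 0.05, against 3.94% of all tested probe sets.

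Egfl7 on 1451428_x_at was higher with doxycycline in 3 of 3 experiments, by 0.75 in A, 0.40 in B and 0.38 in C, an estimate of 0.51 with a 95% interval of 0.10 to 0.92 in the fit with the replicate block (limma adjusted p = 0.930). Of its other 3 probe sets, 1451427_a_at (0.92, 0.40 and 0.49) and 1435823_x_at (0.58, 0.25 and 0.022) were higher in 3 of 3 experiments and 1421335_a_at in 2 of 3, lower by -0.26 in B. Cdh5 on 1433956_at was also higher in 3 of 3, by 0.55, 0.61 and 0.22, with an estimate of 0.46 and an interval of -0.14 to 1.06 with the block (adjusted p = 0.930 by limma, fitted over all probe sets), and its dim probe set was higher in 3 of 3 as well. Emcn was lower in 3 of 3, by -0.18, -0.30 and -0.45, with an estimate of -0.31 (interval -1.10 to 0.48, limma adjusted p = 0.937). Of all tested probe sets, 12.8% were higher and 13.2% lower in 3 of 3 experiments.

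Within single experiments the doxycycline differences pointed different ways, and with 1 array per condition these have no test. In A, 8 of the 10 genes were higher with doxycycline (46.9% of all probe sets) and the median was 0.88, beside -0.036 over all probe sets. Pecam1 differed most, by 2.22, followed by Icam2 at 1.83, Esam at 1.31, Cldn5 at 1.04 and Plvap at 1.01, while Robo4 was lower by -1.02. The uninduced array of A is the one with the high Actb ratio, and its part in these differences was not tested. In B, 6 were higher (50.5% of all probe sets) and 3 lower, with Robo4 equal on both arrays and a median of 0.26 (0.0058 over all probe sets). The differences in B were within -0.30 and 0.70 for every gene. In C, 4 were higher (53.5% of all probe sets) and 6 lower with a median of -0.29 (0.040 over all probe sets), Plvap at -2.47, Esam at -1.26 and Icam2 at -0.83 among them.

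The doxycycline differences in A and C therefore opposed each other for Pecam1, Esam, Icam2, Cldn5, Plvap and Robo4. From B and C alone the estimates for Pecam1, Icam2 and Cldn5 were -0.11, -0.22 and -0.20, against 0.67, 0.46 and 0.22 from all 3 experiments, none past the threshold. Leaving out 1 array of a pair brings the gap between experiments into this estimate. The same 3 genes turned to -0.45, -0.52 and -0.42 without the uninduced array of A and to -0.37, -0.85 and -0.35 without the induced array of B, where Cdh5 turned too, to -0.36.

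**Figure D5:**
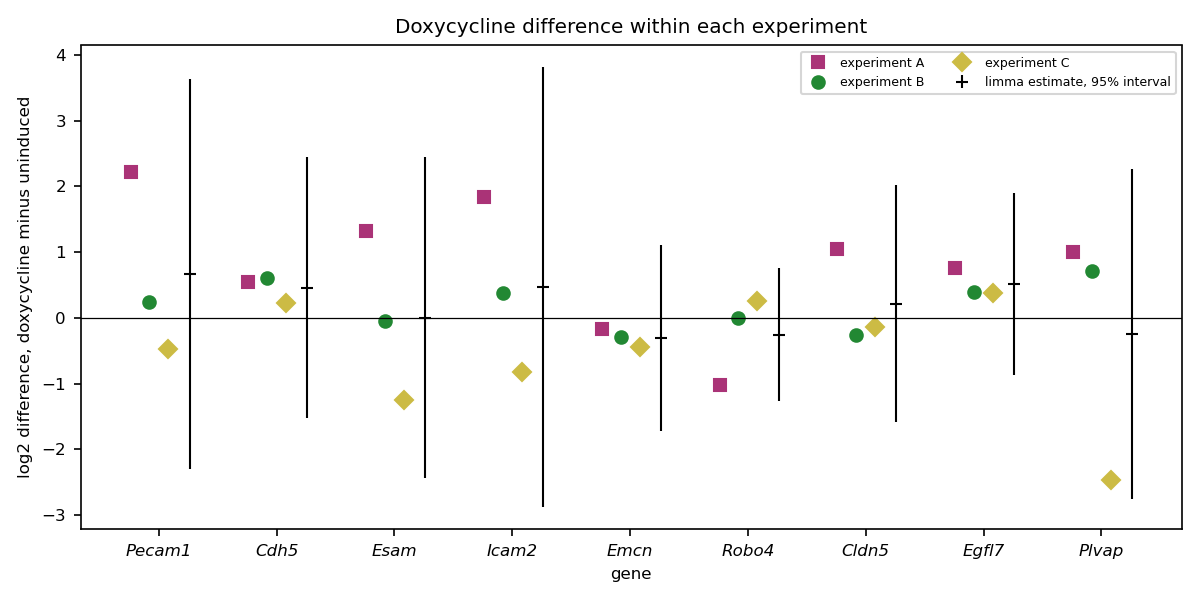
Log2 difference between the doxycycline and the uninduced array of each experiment for the 9 tested genes (squares A, circles B, diamonds C), with the limma estimate and its 95% confidence interval from the fit without the replicate block. The points of Cdh5 and Egfl7 lie above 0 and those of Emcn below 0 in all 3 experiments, and every interval spans 0.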

How the data were processed

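RNA from 6 cultures was hybridized to Affymetrix Mouse Genome 430 arrays. The authors deposited a single linear intensity for each probe set on each array, made with MAS5 per the submitters' processing notes, with no version named there. The 2% trimmed mean was 500.0 on every array, and no further normalization was applied. Detection calls were not used here, and precision is limited by how few arrays there are. Of 45101 probe sets, 64 controls were left out, and 27022 with a mean at or above the 40th percentile were tested. Gene names come from the platform annotation held by GEO, with symbols updated by Entrez ID through RefSeq (GRCm38.p6) for 34741 of 34945 probe sets named for 1 gene; 932 named for several and 9160 not named gave no gene. A gene was represented by its tested probe set with the highest mean.

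limma 3.58.1 in R 4.3.3 was used, with an intensity trend, two-sided tests, adjustment by Benjamini-Hochberg across every tested probe set and a threshold of 0.05. The doxycycline comparison used group means, and the experiment comparisons added the group as a term. The scripts were tested on simulated data. The labels give each array a replica letter and do not state that arrays with the same letter share an experiment. Deviations of such arrays from their group mean had an r of 0.45 to 0.67, so the letters were taken to pair the arrays. The members and the other gene lists were chosen with earlier results of these data known. Named genes were all members, those of each list with the lowest p (3 for the experiments, 2 for doxycycline, of which only some are printed), and the 5 most similar in pattern. The alternatives were other offsets (1 and 64), other filters (none, 60th percentile), quantile normalization, no intensity trend, arrays or experiments left out, averaged probe sets, the replicate block and experiments without the group term. The other lists without the uninduced array of A, and the share of all probe sets called with single arrays left out, were added after seeing the data.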

Additional observations from a re-analysis of the deposited data

How the results depend on the processing

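The alternatives left the direction of B minus A unchanged for all 9 tested genes and that of C minus B for all but Robo4, which ran from -0.62 to 0.13 with single arrays left out. Calls were less stable. Without an intensity trend, B minus A called 0 genes, and leaving out experiment B, so that the F test compared C with A alone, also gave 0. With 1 array left out at a time, called genes ranged from 2 to 8 for the F test, 0 to 8 for B minus A, 0 to 3 for C minus A and 4 to 8 for C minus B. Over all tested probe sets the F test called between 5.56% and 51.1% in these fits. The medians over the 9 genes ranged from 1.59 to 2.85 for B minus A and from -2.74 to -1.77 for C minus B. In these fits an experiment with 1 array is assumed to vary like the others.

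Doxycycline calls were 0 under every alternative, the replicate block included, where the median over the 9 genes was 0.22. With single arrays left out that median ranged from -0.49 to 1.02. By gene the estimates ranged from -0.45 to 1.91 (Pecam1), -0.36 to 1.21 (Cdh5), -0.90 to 0.94 (Esam), -0.85 to 1.82 (Icam2), -0.80 to 0.18 (Emcn), -0.49 to 0.15 (Robo4), -0.42 to 1.02 (Cldn5), 0.019 to 1.06 (Egfl7) and -1.35 to 0.84 (Plvap). Signs turned without both arrays of A for Pecam1 (-0.11), Icam2 (-0.22), Robo4 (0.12) and Cldn5 (-0.20), and without both of C for Esam (0.63) and Plvap (0.85). Esam, near 0, also turned with an offset of 64 (0.035) and without both arrays of B (0.028). The cause was not tested. Low signals such as those of Clec14a, and of Icam2 in A and C, lie near the offset, where differences are understated.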
